A study of Rattus norvegicus with 4 samples.

Results

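Fatty acid synthesis genes were followed in the livers of rats anesthetized with sevoflurane or desflurane, both volatile ether anesthetics. The set consisted of 10 genes, Srebf1, Mlxipl, Acly, Acss2, Acaca, Acacb, Fasn, Me1, Thrsp and Elovl6, chosen by name for their place in the pathway, with earlier results of these data known, out of 16999 named genes in the expression tables. Liver RNA of wild-type Rattus norvegicus was sequenced in 4 libraries, 1 per group. In the sevoflurane 0 h and desflurane 0 h groups the rat was decapitated at loss of consciousness, so both controls had also inhaled the agent briefly. In the sevoflurane 6 h group the agent was given at 4.5% for 6 h, and in the desflurane 6 h group at 6% for 6 h. The labels used here give no strain, age or sex. Control and anesthetized livers were taken 6 h apart. Anesthesia itself, the hour of harvest and any difference in time without food therefore cannot be told apart. This holds for any comparison of 6 h with 0 h. Each group is 1 library, so no difference between a pair of libraries has a replicate check.

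The liver makes fatty acids from acetyl-CoA in the cytosol. ATP citrate lyase and the acetyl-CoA synthetase Acss2 supply the acetyl-CoA, the acetyl-CoA carboxylases turn it into malonyl-CoA, and fatty acid synthase builds palmitate from both with NADPH, part of which comes from malic enzyme. Insulin acts on the pathway mainly through the transcription factor SREBP-1c, encoded by Srebf1, and glucose through ChREBP, encoded by Mlxipl, and both are known for inducing these enzymes in the fed state.

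Expression was given as TPM, a transcript level scaled for transcript length and library size, so that levels of different genes can be compared. Where 4 TPM values are listed together, they run from sevoflurane 0 h and 6 h to desflurane 0 h and 6 h. Between 7881 and 8094 genes had a TPM above 2 in a library. The aligned sequence implied by the ratio of coverage to FPKM was 3.50 Gb for the sevoflurane 0 h library and 5.29 to 5.57 Gb for the other libraries. The liver label was checked against its markers: 8 of 8 hepatocyte markers, Alb among them, were listed, with a summed TPM of 94891 to 106449. The adipocyte markers Adipoq, Lep and Plin1 were at 0 in all 4 libraries, and the summed level of the 9 adipocyte markers was between 53.7 and 75.4 TPM. The summed level of 7 listed red blood cell markers was 632 and 991 TPM in the 0 h libraries and 1671 and 1864 TPM in the 6 h libraries, and 5 of the 5 fitted members rose. The clock genes moved too: Dbp was at 0.40 TPM in the sevoflurane 0 h library and 87.9 TPM in the sevoflurane 6 h library, and at 1.92 and 44.8 TPM with desflurane. Arntl went the other way, from 22.6 to 0.426 TPM with sevoflurane and from 17.6 to 2.14 TPM with desflurane. The part of blood content and of the clock in the values below was not tested.

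Srebf1 and Thrsp were the members that passed the test across the 4 libraries, in opposite directions. Acly is an enzyme gene that did not pass it and that carries the same motifs. The sequences before the starts of these 3 members are shown. They are the 250 bases before the annotated start in RefSeq (build GRCr8, 5′ to 3′ in the direction of the gene, all on the minus strand). Srebf1, which is known to start at separate promoters for its SREBP-1a and SREBP-1c forms, has 2 entries 10.2 kb apart, at chr10:45529165-45529414 (distal) and chr10:45519011-45519260 (proximal). Thrsp lies at chr1:161138965-161139214 and Acly at chr10:85963632-85963881. Capitals mark CCAAT, the letters of the NF-Y box, and GGGCGG, the letters of the Sp1 box, read on either strand.
Srebf1 distal start: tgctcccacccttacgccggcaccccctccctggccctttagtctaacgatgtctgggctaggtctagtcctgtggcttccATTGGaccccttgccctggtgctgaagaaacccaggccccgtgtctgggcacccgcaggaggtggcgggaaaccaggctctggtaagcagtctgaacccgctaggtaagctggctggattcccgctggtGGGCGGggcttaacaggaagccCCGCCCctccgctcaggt
Srebf1 proximal start: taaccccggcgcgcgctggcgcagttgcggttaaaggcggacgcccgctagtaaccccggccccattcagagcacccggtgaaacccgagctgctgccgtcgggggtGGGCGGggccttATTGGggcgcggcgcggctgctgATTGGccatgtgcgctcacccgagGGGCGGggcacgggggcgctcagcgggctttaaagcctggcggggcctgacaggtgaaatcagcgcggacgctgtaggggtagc
Thrsp: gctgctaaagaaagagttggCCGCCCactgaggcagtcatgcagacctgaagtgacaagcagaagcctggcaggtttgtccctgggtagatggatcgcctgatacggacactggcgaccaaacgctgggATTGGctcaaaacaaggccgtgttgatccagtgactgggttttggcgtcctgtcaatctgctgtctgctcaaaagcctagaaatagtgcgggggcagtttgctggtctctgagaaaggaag
Acly: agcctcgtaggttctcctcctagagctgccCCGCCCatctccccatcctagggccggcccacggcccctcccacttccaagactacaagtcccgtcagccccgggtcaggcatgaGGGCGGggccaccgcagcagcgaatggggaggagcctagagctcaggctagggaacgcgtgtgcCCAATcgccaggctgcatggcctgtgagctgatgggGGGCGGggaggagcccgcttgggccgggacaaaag
Of the 10 members, 7 had an entry in the promoter table, with 9 entries in all; Fasn, Acaca and Elovl6 had none. The entries of Mlxipl overlap almost wholly and were counted once, leaving 8 separate windows, of which those of Srebf1 belong to 1 gene. CCAAT was in 7 of the 8 windows, against 34.0% of 33469 promoters, and GGGCGG was in 6 of 8, against 30.5%. The Me1 window lacked CCAAT and the Acacb window lacked GGGCGG, so Acly does not represent all enzymes of the set. The sterol response element written as TCACNCCAC was in 0 of 8 windows (0.974% of all promoters), and the E-box CACGTG was also in 0 of 8 (5.59%). These are letter matches on both strands in a short window, with no overlap between the motifs marked, and do not show binding. Other spellings of a motif were not searched, so 0 matches does not show that a functional site is absent.

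The members spanned a wide range of levels. Thrsp was the member with the highest TPM in each of the 4 libraries and Elovl6 the lowest, while Srebf1 was second in both 0 h libraries and Acly was second in both 6 h libraries. The plot of member levels shows that the genes did not move as a block.

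**Figure D1:**
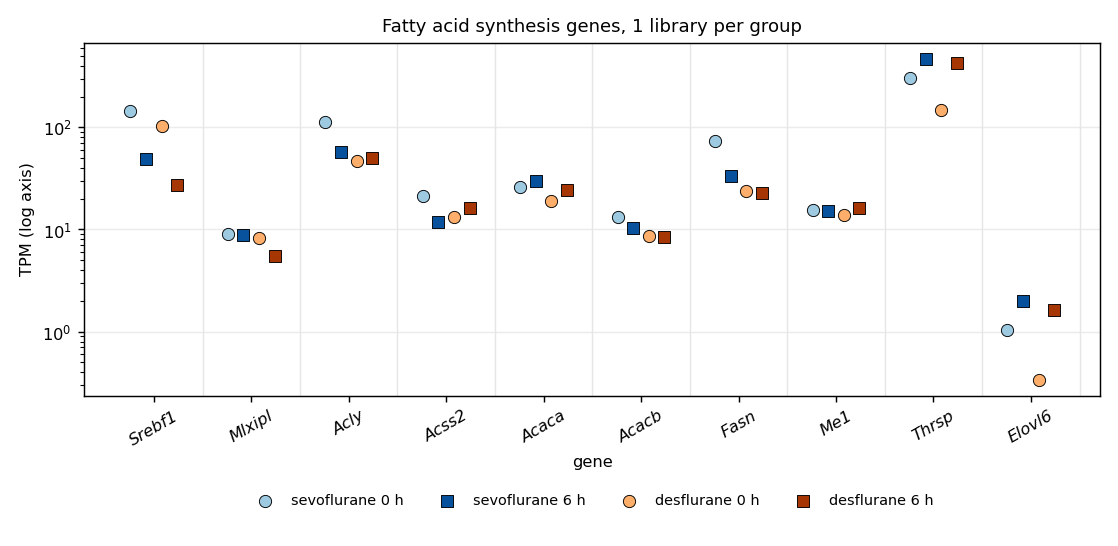
TPM (log axis) of the 10 fatty acid synthesis genes in the 4 libraries; each point is 1 library, circles mark 0 h and squares 6 h, blue sevoflurane and orange desflurane. Srebf1 is lower at 6 h with both agents and Thrsp is higher, while Fasn and Acly stand highest in the sevoflurane 0 h library alone.

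A gene was called between a pair of libraries when its larger TPM was above 2 and the ratio was above 2. With sevoflurane, 2 of the 10 members were called lower at 6 h, Srebf1 and Fasn, beside 3.71% of all genes, and 0 of 10 were called higher, beside 5.04%. With desflurane, of 9 members above the minimum level, Srebf1 was called lower (5.55% of all genes) and Thrsp higher (4.1%). Across all 4 libraries, with the agent as a block, limma on log2(TPM + 1) found that Srebf1 fell and Thrsp rose among the 9 members that could be fitted. In the same fit 3.94% of 8024 genes fell and 4.69% rose. The fit treats the agents as replicates of each other and has 1 residual degree of freedom, which limma supplements with the spread over all genes. The members had a median difference of −0.17 on the log2 scale with sevoflurane, where the median of 9201 genes was 0.05. With desflurane the members' median was 0.15 and that of all genes −0.10. With the controls exchanged between the agents, the median of the members was 0.27 with sevoflurane and −0.48 with desflurane, so that both directions turned with the control. The 6 listed Kupffer cell markers had a median of −0.41 with sevoflurane (0 of 6 higher) and 0.28 with desflurane (6 of 6 higher), with a summed level of 348, 278, 311 and 364 TPM and none at 0 in all libraries. Of these 6 markers 0 passed the limma test, and their part in the members' medians was not tested. Of the members, 6 were higher and 4 lower with desflurane, and 8 and 2 once libraries were rescaled to their median ratio, while 3 were higher and 7 lower with sevoflurane on both scales.

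Among the regulators, Srebf1 showed the largest decrease of the 10 members. Its level was 146 TPM in the sevoflurane 0 h library, 48.6 TPM in the sevoflurane 6 h library, 102 TPM in the desflurane 0 h library and 27.1 TPM in the desflurane 6 h library. Both 6 h libraries lay below both 0 h libraries. Srebf1 was 3.00-fold lower with sevoflurane and 3.76-fold lower with desflurane, and the change common to both agents was −1.72 on the log2(TPM + 1) scale (SE 0.15, limma adjusted p = 1.18e-05). The gene lies at chr10:46570996-46593009 on the minus strand in rn6, and overlaps Rai1 on the opposite strand by 595 bp. Rai1 itself was between 0.973 and 1.79 TPM. The call was lost without the sevoflurane 0 h library (limma adjusted p = 0.0902) and with no filter on low values (0.427), where 0 of 16985 genes passed and 1709 had an unadjusted p below 0.05. In bulk liver, fewer cells of a type and less RNA per cell cannot be told apart.

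Mlxipl, which encodes ChREBP, did not follow Srebf1 on its named row. It was at 8.93 and 8.88 TPM at 0 h and 6 h of sevoflurane and at 8.18 and 5.45 TPM at 0 h and 6 h of desflurane. The desflurane 6 h library thus held the lowest level, and the 3 others lay close together. On summed assembled loci, Mlxipl was at 22.5, 17.5, 16.3 and 10.3 TPM. These sums were lower at 6 h with both agents, with log2 differences of −0.35 with sevoflurane and −0.62 with desflurane. The common change of Mlxipl on the named row was −0.26 (SE 0.23, limma adjusted p = 0.615). Its dimer partner Mlx was at 19.0, 29.8, 22.8 and 21.9 TPM (adjusted p = 0.494).

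Genes that act on or beside SREBP-1 did not move alike. Nr1h3, encoding the oxysterol receptor LXRα that induces Srebf1 transcription, was at 101, 66.2, 104 and 64.3 TPM and fell by 0.64 on the log2 scale (SE 0.14, limma adjusted p = 0.0105). Srebf2, the paralog that acts mainly on cholesterol genes, was at 6.53, 4.12, 5.70 and 4.01 TPM (common change −0.49, adjusted p = 0.263). The ratio of Srebf1 to Srebf2 levels was 22.4 and 17.9 at 0 h and 11.8 and 6.77 at 6 h, so the Srebf1 level was the higher of both paralogs in each library. Insig1, whose product holds SREBPs in the endoplasmic reticulum, was at 143, 69.5, 53.6 and 278.5 TPM. Insig1 was therefore 2.06-fold lower with sevoflurane and 5.20-fold higher with desflurane, each against its own control. Its common change did not pass the test (0.66, adjusted p = 0.546). The controls differed as well, Insig1 being 2.67-fold lower in the desflurane 0 h than in the sevoflurane 0 h library. The sevoflurane 6 h level lay above the desflurane 0 h level, so the direction for sevoflurane depended on the control. Of 7 fitted genes for SREBP processing, 0 passed the test of a common change in either direction, and of 11 upstream regulators Ppargc1b rose and Nr1h3 fell. Ppargc1b, a coactivator of SREBP-1, was at 0.895, 2.54, 0.669 and 6.58 TPM (common change 1.54, SE 0.30, adjusted p = 0.00644). Usf1, a factor that binds E-boxes of lipogenic promoters, was at 16.2, 14.4, 20.0 and 9.69 TPM and was called lower with desflurane (common change −0.57, adjusted p = 0.165).

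Of the genes for acetyl-CoA supply, Acly, which cleaves citrate, was at 112 TPM in the sevoflurane 0 h library, 56.8 TPM in the sevoflurane 6 h library, 46.5 TPM in the desflurane 0 h library and 49.6 TPM in the desflurane 6 h library. The sevoflurane 0 h library stood alone, and the other 3 lay within 46.5 to 56.8 TPM. Acly was 1.97-fold lower with sevoflurane, just short of the ratio of 2, and its log2 difference with desflurane was 0.09. It was called lower with sevoflurane on FPKM (−1.05) and after rescaling to the median ratio (−1.03), and was higher, by 0.28, against the desflurane 0 h library. The common change was −0.44 (SE 0.21, limma adjusted p = 0.270). It was −1.07 without the desflurane 0 h library, where sevoflurane 0 h was the only control, and 0.19 without the sevoflurane 0 h library.

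Acss2, which makes acetyl-CoA from acetate, had a like pattern at a lower level. It was at 21.3 and 11.7 TPM at 0 h and 6 h of sevoflurane and at 13.2 and 16.2 TPM at 0 h and 6 h of desflurane. Acss2 had a log2 difference of −0.81 with sevoflurane and of 0.27 with desflurane. The common change was −0.27 (SE 0.24, limma adjusted p = 0.636). The level of Acly was 3.06 to 5.26 times that of Acss2 over the libraries. Of 10 genes for NADPH and citrate supply outside the set, such as the citrate carrier Slc25a1, 0 were called with either agent and 0 of 10 passed the test.

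The carboxylases differed little between 0 h and 6 h. Acaca, the cytosolic form ACC1 that feeds synthesis, was at 26.3 and 29.7 TPM at 0 h and 6 h of sevoflurane and at 19.1 and 24.2 TPM at 0 h and 6 h of desflurane. Acacb, the form ACC2 at the mitochondrial surface whose malonyl-CoA restrains fatty acid import, was at 13.1, 10.4, 8.6 and 8.44 TPM in these libraries. The common change was 0.25 for Acaca (SE 0.17, limma adjusted p = 0.489) and −0.17 for Acacb (SE 0.21, adjusted p = 0.743). The ratio of Acaca to Acacb was 2.01 and 2.22 at 0 h and 2.85 and 2.87 at 6 h, so the 6 h libraries lay above the 0 h libraries, which was not tested. The Acaca locus, chr10:71519392-71719910 on the plus strand in rn6, was assembled as 3 separate transcribed loci in 3 libraries and 5 in the desflurane 6 h library, each with a TPM of its own between 2.64 and 30.7.

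Fasn, the synthase itself, was called lower with sevoflurane. It was at 73.3 TPM in the sevoflurane 0 h library, 33.6 TPM in the sevoflurane 6 h library, 24.0 TPM in the desflurane 0 h library and 22.5 TPM in the desflurane 6 h library. As with Acly, the sevoflurane 0 h library stood above the other 3. Fasn was 2.18-fold lower with sevoflurane, while its log2 difference with desflurane was −0.08 and became positive, 0.03, once libraries were rescaled to their median ratio. The common change was −0.59 (SE 0.22, limma adjusted p = 0.135). It was −1.38 without the desflurane 0 h library, where sevoflurane 0 h was the only control, and 0.19 without the sevoflurane 0 h library. Against the desflurane 0 h library the sevoflurane 6 h library was higher, with a log2 difference of 0.47, so the direction for sevoflurane depended on which control was used. The ratio of Fasn to Acaca levels was 2.78 in the sevoflurane 0 h library and 0.930 to 1.26 in the other 3.

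Me1, the cytosolic malic enzyme that makes NADPH, varied least of the members in TPM ratio. Its level was 15.7, 15.2, 13.8 and 16.1 TPM across the 4 libraries. The common change was 0.09 (SE 0.19, limma adjusted p = 0.871).

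Thrsp moved opposite to Srebf1. Thrsp encodes Spot 14, a small protein induced by thyroid hormone and carbohydrate feeding and tied to lipogenesis. It was at 305 TPM in the sevoflurane 0 h library, 469 TPM in the sevoflurane 6 h library, 148 TPM in the desflurane 0 h library and 429 TPM in the desflurane 6 h library. Both 6 h libraries lay above both 0 h libraries. Thrsp was 1.54-fold higher with sevoflurane and 2.90-fold higher with desflurane, and it rose by 1.07 in the common fit (SE 0.18, limma adjusted p = 0.00196). Its call was lost without the agent block (adjusted p = 0.0737), without the intensity trend (0.0551), and without the sevoflurane 6 h (0.118), desflurane 0 h (0.147) or desflurane 6 h (0.0986) library, as well as with no filter on low values (0.573).

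Mid1ip1 encodes the paralog of Spot 14, which promotes the polymerization of acetyl-CoA carboxylase, and it moved the other way. It was at 90.6, 19.1, 38.5 and 6.24 TPM, 4.74-fold lower with sevoflurane and 6.18-fold lower with desflurane (common change −2.32, SE 0.17, limma adjusted p = 3.31e-06). Mid1ip1 was also lower in the desflurane than in the sevoflurane library, 2.35-fold at 0 h and 3.07-fold at 6 h, so the fold sizes depend on the control. The ratio of Thrsp to Mid1ip1 levels was 3.37 and 3.84 in the 0 h libraries and 24.5 and 68.8 in the 6 h libraries. Among the 8 fitted genes listed for the control, direct or not, of acetyl-CoA carboxylase or malonyl-CoA, Mid1ip1 was the only gene that fell. Prkaa1, a catalytic subunit of the AMP-activated kinase that inhibits the carboxylases, was the only gene that rose. Prkaa1 was at 4.23, 7.28, 4.28 and 9.66 TPM (common change 0.84, SE 0.23, adjusted p = 0.0404).

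**Figure D2:**
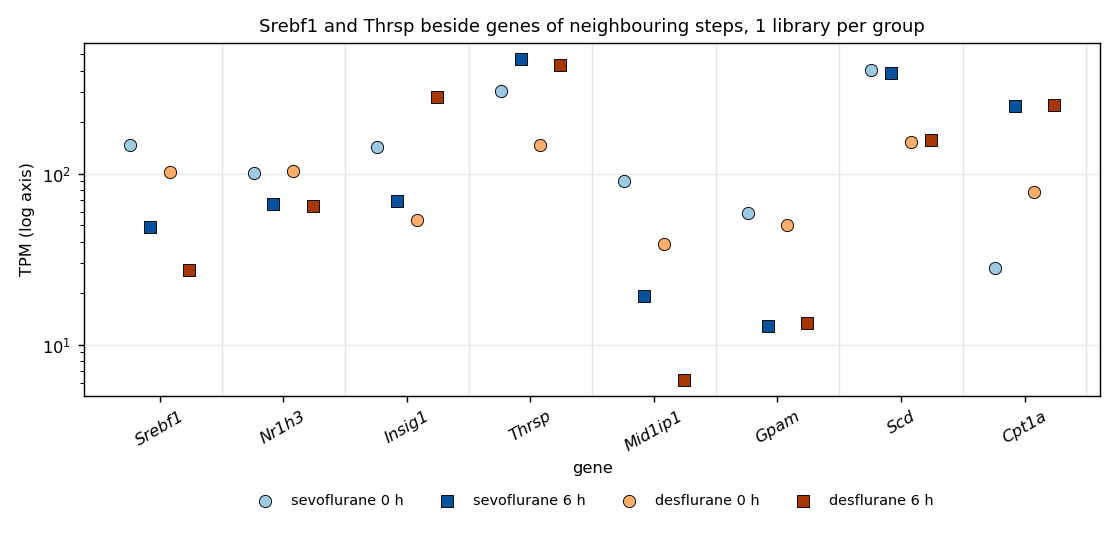
TPM (log axis) of Srebf1 and Thrsp beside genes of neighbouring steps in the 4 libraries; each point is 1 library, circles mark 0 h and squares 6 h. Srebf1, Nr1h3, Mid1ip1 and Gpam are lower at 6 h with both agents, and Thrsp and Cpt1a are higher. Against its own control, Insig1 is lower with sevoflurane and higher with desflurane, and the controls themselves differ.

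Elovl6, which elongates palmitate to stearate, was barely detected. Its level, the sum of 2 rows, was 1.04 TPM in the sevoflurane 0 h library, 2.01 TPM in the sevoflurane 6 h library, 0.338 TPM in the desflurane 0 h library and 1.61 TPM in the desflurane 6 h library. Both 6 h libraries lay above both 0 h libraries, with log2 differences of 0.56 and 0.96, but the mean level was below the 2 TPM needed for the fit. On summed assembled loci the sevoflurane difference was −0.01, with levels of 2.07 TPM at 0 h and 2.04 TPM at 6 h. The rows sit on opposite strands of chromosome 2 in rn6, at chr2:234187490-234296124 (minus) and chr2:234375315-234483145 (plus), 79.2 kb apart, with nearly equal values in each library. Coverage of the rows was 0.578 to 3.45, against 19.8 to 1605 for the other members, so the depth allows no firm statement on Elovl6.

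Among 11 fitted genes for elongation and desaturation, Elovl2 was the only gene that rose and 0 fell. Elovl2, an elongase of polyunsaturated fatty acids, was at 7.93, 17.1, 8.74 and 14.2 TPM (common change 0.83, SE 0.21, limma adjusted p = 0.0236). Scd, the desaturase that acts next on palmitate and stearate, was at 402, 386, 153 and 158 TPM (common change −0.01, SE 0.12, adjusted p = 0.982). It was lower in both desflurane libraries than in both sevoflurane libraries, already at 0 h. With 1 library per group, agent, animal and library cannot be told apart in this difference. The Fasn level was 0.0870 to 0.182 times that of Scd.

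The controls differed from each other in these genes. All 10 members were lower in the desflurane 0 h library than in the sevoflurane 0 h library, with a median difference of −0.58 on the log2 scale, where 29.2% of 8024 genes were lower and the median of all genes was 0.11. Of the 9 members above the minimum level, Fasn was 3.06-fold lower, Acly 2.41-fold lower and Thrsp 2.07-fold lower, and these 3 were called, beside 0.799% of all genes, whereas 0 of 9 were called higher, beside 1.96%. After scaling by the median of ratios, 10 of 10 members were still lower, with a median of −0.66. The sevoflurane 0 h library held the highest level of 6 of 10 members and of 16.2% of all genes. It was the least deeply sequenced library, and with 1 library a group the animal, the agent and the library cannot be told apart.

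Between the 6 h libraries the members stood closer by their median, and 8 of 10 were lower with desflurane, beside 54.3% of 8024 genes. Of the 10 members, 0 were called higher with desflurane (2.21% of all genes) and 0 were called lower (1.77%), and the median difference, desflurane minus sevoflurane, was −0.24. Srebf1 was 1.79-fold lower in the desflurane 6 h library than in the sevoflurane 6 h library. Srebf1 and Mlxipl lay further apart than at 0 h. Their log2 differences were −0.82 and −0.62 at 6 h, against −0.51 and −0.11 at 0 h. The summed TPM of the members was 723, 686, 384 and 600. Without Thrsp the sum was 418, 217, 236 and 171 TPM, so that Thrsp made up most of the sum in both 6 h libraries.

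**Figure D3:**
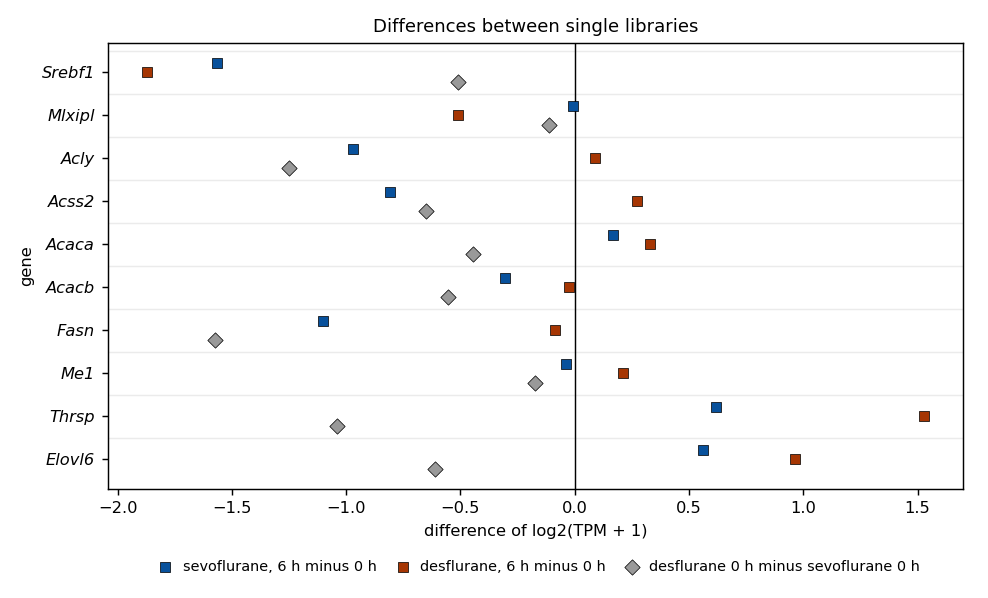
Difference of log2(TPM + 1) for each of the 10 genes, 6 h minus 0 h for sevoflurane (blue squares) and desflurane (red squares), and desflurane 0 h minus sevoflurane 0 h (grey diamonds); each point compares 2 single libraries. All grey diamonds lie below 0, and the sevoflurane differences of Acly and Fasn are smaller in size than the difference between the controls, whereas that of Srebf1 is larger.

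The neighbouring gene lists are summarized by their counts and medians. Of 11 fitted genes known to respond to glucose through ChREBP, 2 rose, Slc2a2 and Gpd1, and 1 fell. G6pc, the glucose-6-phosphatase that releases free glucose, was at 361, 258, 199 and 651 TPM (common change 0.61, limma adjusted p = 0.362). Gpd1, which makes glycerol 3-phosphate, was at 220, 269, 196 and 529 TPM (common change 0.86, SE 0.20, adjusted p = 0.0187), and Slc2a2, the hepatic glucose transporter, was at 113, 291.5, 151 and 285 TPM (1.13, SE 0.14, adjusted p = 0.000193).

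Of 11 fitted genes for acyl activation and esterification, which use the fatty acids made, 3 fell and 1 rose. Gpam, the mitochondrial acyltransferase that starts glycerolipid synthesis, was at 59.0, 12.8, 50.2 and 13.3 TPM (common change −1.98, SE 0.17, limma adjusted p = 1.18e-05). Acsl3, an acyl-CoA synthetase, was at 12.4, 4.78, 10.001 and 6.56 TPM (−0.88, SE 0.23, adjusted p = 0.0359). The third gene that fell was Agpat2 and the gene that rose was Gpat4, with common changes of −0.72 and 0.64. Mitochondrial fatty acid synthesis, a separate pathway that makes the lipoic acid precursor, had 7 listed genes, of which 0 passed the test and 0 were called with either agent.

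**Figure D4:**
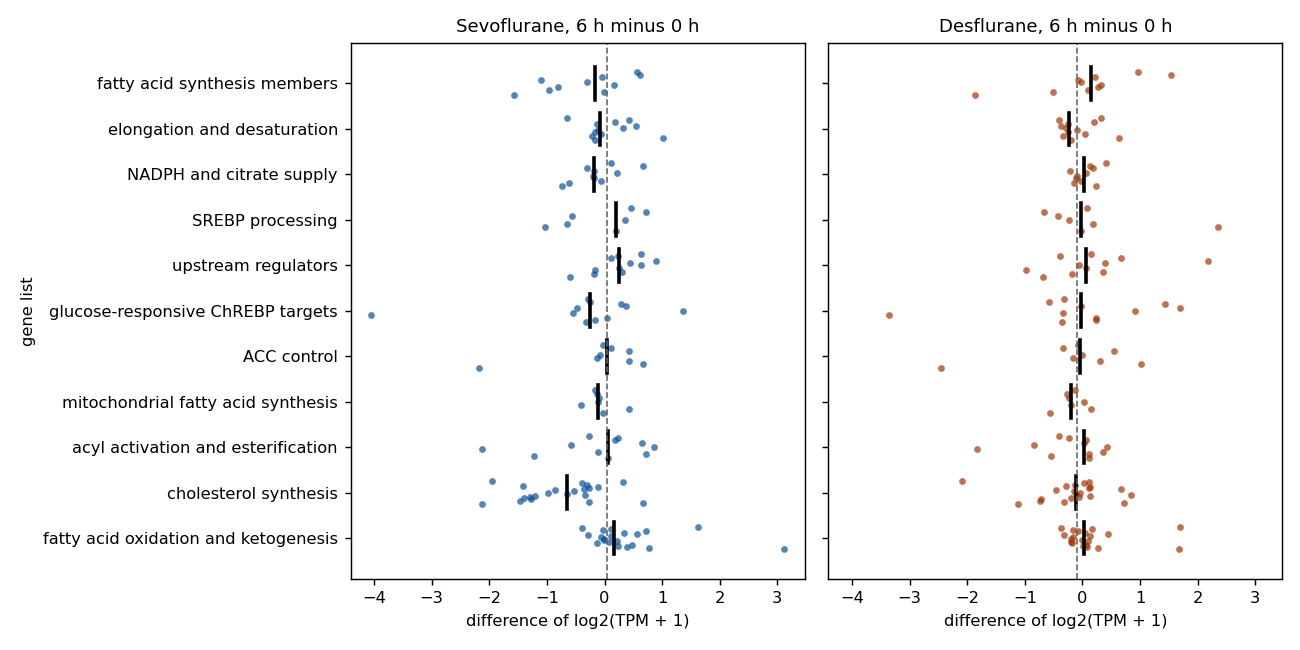
Difference of log2(TPM + 1), 6 h minus 0 h, with sevoflurane (left) and desflurane (right) for the genes of 11 lists with a mean TPM of at least 1; each point is 1 gene, the black bar is the median of the list and the dashed line the median of 9201 genes. The members spread to both sides of 0 with both agents, and the cholesterol synthesis list has the lowest median with sevoflurane, at −0.66. The median of that list between the controls, desflurane 0 h minus sevoflurane 0 h, was −0.50 (not drawn).

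The genes whose profile over the 4 libraries lay nearest to the mean profile of the members, by Euclidean distance of centred log2 levels, were Mrps28 (0.114), Bbc3 (0.127), Terc (0.141), Avpi1 (0.144) and Lrrc61 (0.148). Mrps28, which encodes a mitochondrial ribosomal protein, was at 11.2, 8.66, 7.34 and 7.27 TPM. With 4 libraries this nearness is a description.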

How the data were processed

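The submitters' processing notes name HISAT2, SAMtools, StringTie and the rn6 build, with no versions. Libraries were made with a stranded total RNA kit after extraction from RNAlater-preserved liver; the sources used here do not state whether counting used strand. In the deposited tables the authors gave coverage, FPKM and TPM per row, with rows both for named genes and for assembled loci. Because both kinds are listed in the deposited TPM column, its sum exceeds the TPM scale, and its values were treated as a score. Depth was read from the deposited coverage and FPKM, whose ratio held within 1% for at least 97.1% of rows compared in each library. The file values hold no read counts, so no count test was run.

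Rows of 200 bp or shorter were dropped, and the remaining rows of 1 symbol were summed. A pair of libraries was compared by TPM ratio (above 2, larger TPM above 2). The common change, 6 h minus 0 h, was fitted with limma 3.58.1 in R 4.3.3 on log2(TPM + 1), pseudocount 1, with the agent as a block, a trend, a mean TPM of at least 2 and Benjamini-Hochberg adjustment over 8024 genes (two-sided, adjusted p below 0.05). Fold changes on this scale understate the change of low genes. The scripts were tested on simulated data. Alternatives were another ratio, minimum, pseudocount, scaling, control or locus sum, and each library left out.

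The members and lists were chosen with earlier results of these data known. Named were all members, up to 3 called genes of each list with the largest change, Scd, Mid1ip1, Insig1, Srebf2, Nr1h3 and Mlx, the 5 nearest profiles and the checks Alb, Dbp and Arntl; Slc2a2, Agpat2, Gpat4, Rai1 and the genes of the marker lists were added after their values were seen. Some genes that the rule names are not reported here. Promoter sequences and motif shares came from RefSeq (GRCr8); no coordinates were converted between builds. A later repeat of the experiment with new samples was not analysed here.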

Additional observations from a re-analysis of the deposited data

Results flagged for a closer look

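Acly, Acss2 and Me1 differed in sign between the agents, being lower at 6 h with sevoflurane and higher with desflurane. The desflurane difference minus the sevoflurane difference was 1.06 for Acly, 1.08 for Acss2 and 0.25 for Me1 on the log2(TPM + 1) scale. With 1 pair of libraries per agent this contrast was not tested, and both terms hold the difference between the controls, which was −1.25 for Acly, −0.65 for Acss2 and −0.17 for Me1 (desflurane minus sevoflurane).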

How the results depend on the processing

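Srebf1 stayed lower and Thrsp higher at 6 h with each agent under all 7 alternatives to the TPM comparison, the control of the other agent included. The counts of called members that follow stand without the share of all genes called under the same setting, so they describe the members only. With a ratio of 1.5, 2 members were higher and 4 lower with sevoflurane, and 2 were lower with desflurane. With a ratio of 3, 1 was lower with sevoflurane and 0 were higher with desflurane. With a minimum TPM of 1, with no minimum, and with TPM rescaled without the abundant Rn7sl1, 2 were higher with desflurane. Against the control of the other agent, 2 were higher and 1 lower with sevoflurane, 0 were higher and 3 lower with desflurane, the sevoflurane median turned to 0.27 and the desflurane median to −0.48, and the differences with sevoflurane turned to 0.47 for Fasn and 0.28 for Acly. With FPKM and with scaling by the median of ratios, 3 were lower with sevoflurane, Acly being gained. The count of members past the limma threshold, 2, was 1 with no replicate block (the agents unpaired), 1 without the trend, 0 with no filter on low values, and 1 to 3 with 1 library left out (Srebf1, Acly and Fasn, and not Thrsp, without desflurane 0 h). In the fits with 1 library left out, which have no agent block and assume that a lone library varies like the others, the common change ranged from −1.07 to 0.19 for Acly, −0.59 to 0.0575 for Acss2, −0.44 to 0.11 for Acacb and −1.38 to 0.19 for Fasn, lowest without desflurane 0 h and above 0 without sevoflurane 0 h. It ranged from −0.00087 (without desflurane 0 h) to 0.17 for Me1 and from −0.57 to 0.0489 (without desflurane 6 h) for Mlxipl. Over all genes, 692 passed, 488 without the block, 440 without the trend, 163 to 591 with 1 library left out, and 0 with no filter (1709 at an unadjusted p below 0.05). Of the members' differences recomputed with other scalings, loci, controls or pseudocount, 64 of 70 kept their sign with sevoflurane and 62 of 68 with desflurane. With sevoflurane the sign turned for Mlxipl, Acly, Acacb, Fasn and Me1 against the other control and for Elovl6 on summed assembled loci (−0.01). With desflurane it turned for Acly, Acss2 and Acaca against the other control, and after scaling for Acacb (0.08, also without Rn7sl1) and Fasn (0.03). Scaling by the median of ratios moved the medians of all genes, at most 0.11 in size, to near 0 and the members' split with desflurane from 6 higher and 4 lower to 8 and 2. The cause of these shifts was not tested. Precision is limited by 1 library per group, and for Elovl6 by coverage.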

Other observations

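Cholesterol synthesis genes, which SREBP-2 mainly drives, had a median difference of −0.66 with sevoflurane and −0.11 with desflurane on the log2 scale. The controls differed here too: desflurane 0 h minus sevoflurane 0 h had a median of −0.50, with 1 of 21 genes higher. Between the 6 h libraries the median, desflurane minus sevoflurane, was 0.14. The contrast between the agents thus holds the difference between the controls and was not tested. In the common fit 6 of 21 fell and 1 rose. Hmgcs1, the synthase for HMG-CoA, was at 212, 47.5, 175 and 79.9 TPM (sevoflurane at 0 h and 6 h, then desflurane), with a common change of −1.63 (SE 0.20, limma adjusted p = 0.000175). Pmvk, a mevalonate pathway kinase, was at 30.6, 10.4, 17.2 and 9.90 TPM (−1.10, SE 0.21, adjusted p = 0.00604).

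Of 20 genes for fatty acid oxidation and ketogenesis, 3 rose and 0 fell. Cpt1a, the import step that malonyl-CoA inhibits, was at 27.9, 249.5, 77.6 and 251 TPM in the same order (common change 2.40, SE 0.25, limma adjusted p = 4.59e-05), and Ppara, the fasting-responsive receptor that drives oxidation genes, was at 9.70, 32.1, 12.7 and 43.6 TPM (1.66, SE 0.18, adjusted p = 5.59e-05). Cidea, a lipid droplet protein and the only adipocyte marker called between 0 h and 6 h, was at 9.12, 2.15, 7.25 and 8.84 TPM (−0.71, adjusted p = 0.301).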
